A study of Homo sapiens with 3 samples.

Results

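Pyrimidine-rich intronic MATR3 clusters are stretches of intron RNA, bound by the nuclear protein MATR3 (matrin 3), in which at least 0.75 of the bases are C or T. They were taken from 3 PAR-CLIP libraries as the clusters annotated to introns, at least 20 nt and under 150 nt long, with that share of C and T in the listed sequence. Replicate 1 held 6830 of them, replicate 2 held 5040 and replicate 3 held 6578. Together these are 18448 of 278842 intron clusters in that length range and of 388807 clusters in all. They lay at 17619 separate places, and within a replicate no member had the sequence of another. Intron clusters of the same lengths with a C plus T share of 0.45 to 0.55, called mixed clusters here, served for comparison and numbered 24319, 25951 and 22423.

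All 3 libraries came from wild-type HEK293, an established human embryonic kidney line, given no treatment, and were immunoprecipitated with an antibody against MATR3. They form a single group of 3 biological replicates of 1 line, with no control library, no MATR3-deficient sample and no measure of RNA abundance used here. Every comparison below is therefore between classes of sites within a replicate. In all, the 3 libraries listed 124040 to 133088 clusters with 1506682 to 1649124 reads, each cluster with at least 4 reads, at least 4 reads with a T-to-C change and at least 2 positions of change. Values after ± are SDs over the 3 replicates. Reads without molecular identifiers are not independent molecules, so read counts are not counts of molecules.

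In PAR-CLIP, cells take up a thio-uridine that crosslinks to bound protein under long-wave ultraviolet light and is then read as C in place of T. MATR3 is a nuclear matrix protein with a pair of RNA recognition motifs, known to bind pyrimidine-rich RNA, to act as a splicing regulator in long introns and to associate with the polypyrimidine tract binding protein PTBP1. Introns carry a polypyrimidine tract before the AG of the 3′ splice site, which U2AF2 reads during spliceosome assembly, and many further pyrimidine stretches deep within them.

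The members that recurred most reproducibly are shown first, because they carry the sequence that all 3 libraries marked. Members of all 3 replicates shared at least 1 nt at 29 places, in 29 genes. Lower case gives the union of the 3 clusters and capitals the nucleotides inside all 3, 5′ to 3′ on the RNA strand, with T for U.
LEMD2: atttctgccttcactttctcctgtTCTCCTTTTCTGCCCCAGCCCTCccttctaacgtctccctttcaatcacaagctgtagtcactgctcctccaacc
CDC42BPA: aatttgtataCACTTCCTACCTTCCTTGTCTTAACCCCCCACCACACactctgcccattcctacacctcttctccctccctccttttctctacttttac
WDR33: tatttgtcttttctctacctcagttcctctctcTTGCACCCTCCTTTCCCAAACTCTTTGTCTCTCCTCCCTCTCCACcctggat
TRIM26: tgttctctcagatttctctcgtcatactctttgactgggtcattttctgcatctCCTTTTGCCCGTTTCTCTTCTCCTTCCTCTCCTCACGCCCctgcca
DDX23: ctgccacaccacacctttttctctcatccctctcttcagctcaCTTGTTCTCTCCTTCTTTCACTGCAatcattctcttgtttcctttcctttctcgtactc
POLA1: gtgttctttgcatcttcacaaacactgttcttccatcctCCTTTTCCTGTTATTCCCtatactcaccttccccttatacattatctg
ARID1B: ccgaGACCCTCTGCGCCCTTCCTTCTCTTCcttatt
HEXA: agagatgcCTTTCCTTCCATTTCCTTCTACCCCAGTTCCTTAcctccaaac

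A further set shows members that sit in the tract of a 3′ splice site, where the intron's last bases can be read directly. Here capitals give the cluster and lower case the rest of the intron down to its final AG.
PFAS: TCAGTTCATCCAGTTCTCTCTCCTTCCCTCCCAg
MARCH7: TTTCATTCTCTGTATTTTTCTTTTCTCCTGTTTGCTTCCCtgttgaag
UNC119B: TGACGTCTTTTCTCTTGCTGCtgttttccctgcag
MTHFD1: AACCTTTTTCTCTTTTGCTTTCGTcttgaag

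Lastly, members in the transcripts of MATR3 and of PTBP2, the neuronal relative of PTBP1, show what the class looks like in the genes of the binding protein and of a tract-binding family. Capitals mark the longest run of C and T.
MATR3, replicate 3: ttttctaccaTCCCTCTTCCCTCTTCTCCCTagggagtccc
PTBP2, replicate 1: aactaCTTTCTTTTTCTTTTCCCTTCTgg
PTBP2, replicate 3: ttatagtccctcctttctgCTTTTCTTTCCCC

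In base make-up the members were rich in T without being tracts of T. They held 43.8% ± 0.50 T, 35.6% ± 0.36 C, 11.4% ± 0.024 A and 9.17% ± 0.18 G (SD, n = 3). The longest run of C and T had a median of 11 nt, against 5 nt in mixed clusters, so that purines interrupted the pyrimidine runs, as in the sequences printed above. A run of 8 T occurred in 1.76% ± 0.28 of members, a CT repeat of 8 nt in 3.89% ± 0.62, and 0.086% ± 0.043 held no purine at all (SD, n = 3). In 30.05% ± 1.52 C outnumbered T (SD, n = 3).

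The first comparison asked whether such sequence was more frequent in clusters than in the sequence around them. For each intron cluster, windows of its own length were read from hg38 at 200 nt beyond each end. They were not required to lie in an intron, to hold reads or to avoid other clusters. No annotated intron held the whole window for 0.74% of pyrimidine-rich flanking windows and 0.051% of members. Pyrimidine-rich windows made up 7.16% of clusters in replicate 1, 5.35% in replicate 2 and 7.36% in replicate 3. Among the flanking windows they made up 3.46%, 3.29% and 3.80%. Replicate 2 was lowest in both, and the clusters of every replicate lay above the flanks of every replicate. The log2 ratio was 0.90 ± 0.18 (SD, n = 3), with 1.05, 0.70 and 0.95 by replicate, above 0 in 3 of 3 (p = 0.25, exact two-sided sign-flip test). With 3 replicates this test can give no lower p, so throughout, its value says only that the sign was shared. Since each listed cluster needs converted T, the comparison was also made among windows with 10 to 20 T, where the log2 ratio was 1.11 ± 0.14 (SD, n = 3).

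**Figure D1:**
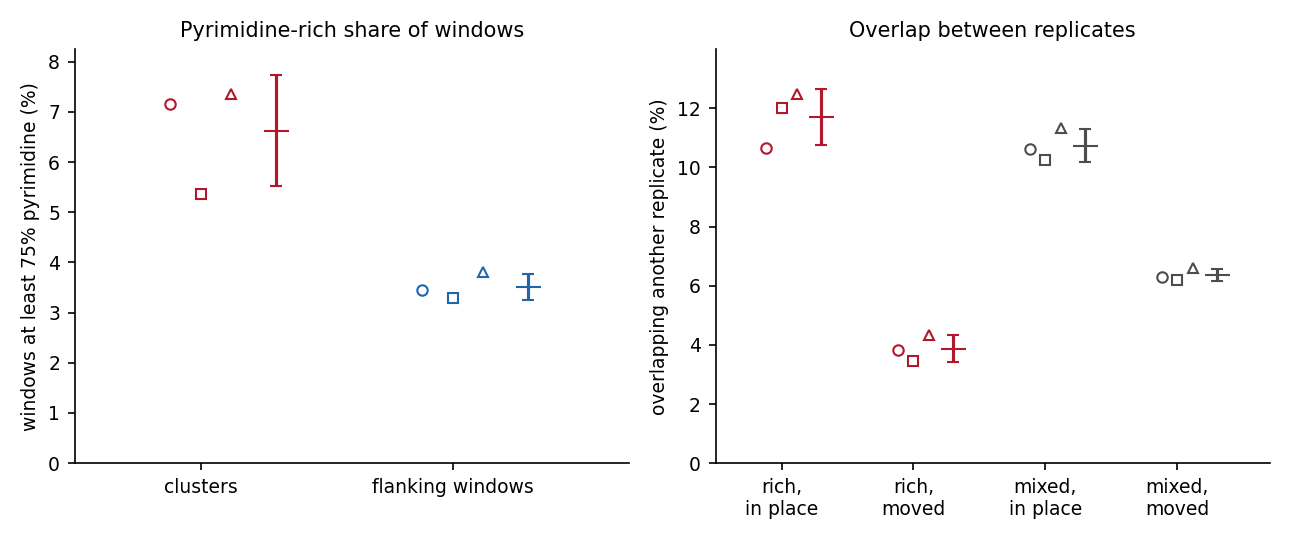
Left, percent of windows that are pyrimidine-rich among intron clusters and among equally long flanking windows. Right, percent of pyrimidine-rich and of mixed clusters that overlap a cluster of another replicate, in place and after moving by 1000 nt. Circles, squares and triangles are replicates 1, 2 and 3, and bars are the mean ± SD. Clusters lie above flanks (6.63% against 3.52%), and the members fall to 3.87% when moved while mixed clusters fall to 6.37%.

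The excess over the flanks rose with the C plus T share and had no step at 0.75. Just outside the limit, at 0.70 to 0.75, the log2 ratio was 0.74 ± 0.098, and just inside, at 0.75 to 0.80, it was 0.94 ± 0.16 (SD, n = 3). It was 1.03 ± 0.17 at 0.80 to 0.85 and 0.94 ± 0.33 at 0.85 to 0.90 (SD, n = 3). At 0.90 to 0.95, with a mean of 134 clusters per replicate, it was 0.18 ± 0.40 (SD, n = 3). At 0.95 and above it was -1.38 in replicate 1, with 43 clusters, and -2.13 in replicate 3, with 25, and replicate 2 had under 20 clusters and was given no value. Windows of only C and T were less frequent in members than in pyrimidine-rich flanking windows, by a difference of -1.71 percentage points ± 0.022, and so were windows with a run of 8 T, by -9.89 points ± 0.66 (SD, n = 3). Each difference was below 0 in every replicate (p = 0.25, exact sign-flip test). These 2 comparisons were not planned.

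**Figure D2:**
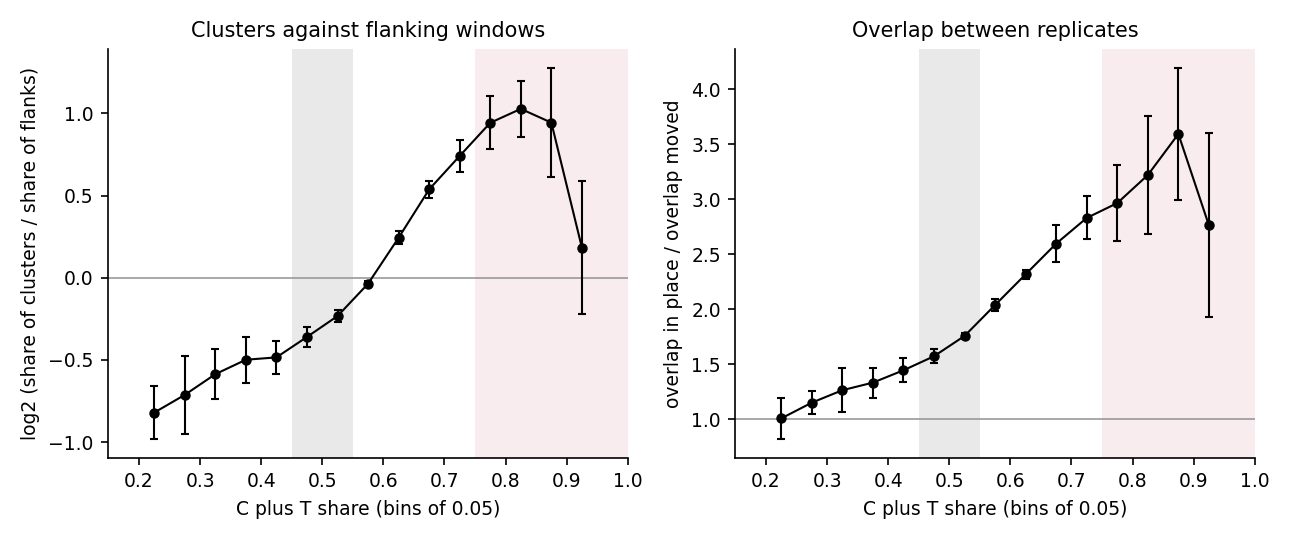
Values by C plus T share in bins of 0.05, as mean ± SD over 3 replicates, for bins with at least 100 clusters on average. Left, log2 ratio of the share of clusters to the share of flanking windows in a bin; right, overlap with another replicate in place over that after moving by 1000 nt. Red shading marks the members and grey the mixed clusters, and both measures climb from 0.45 towards 0.85, with 0.94 and 2.97 in the first bin of members.

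Members were then compared with pyrimidine-rich flanking windows, which pass the same limit on C plus T but lie beside a cluster. T made up 55.5%, 54.4% and 55.0% of the pyrimidines of members in replicates 1, 2 and 3, and 58.99% ± 0.32 in the flanking windows (SD, n = 3). The members were lower in every replicate, with a difference of -4.04 points ± 0.24 (SD, n = 3; p = 0.25, exact sign-flip test). Without windows holding a run of 8 T, an alternative chosen after seeing the data, the difference was -1.38. Among windows with 10 to 20 T it was -0.81. The difference was thus smaller in both restricted sets, and kept its sign.

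ATCTT is the DNA form of AUCUU, the RNA element known for MATR3, and was counted in both sets. Per 1000 positions it occurred 3.81, 3.43 and 4.03 times in the members of replicates 1, 2 and 3, against 2.84 ± 0.078 in pyrimidine-rich flanking windows (SD, n = 3). It was present in 11.98% of members and 9.41% of these windows. The log2 ratio was 0.40 ± 0.12, with 0.38, 0.29 and 0.53 by replicate (SD, n = 3; p = 0.25, exact sign-flip test). Among windows with 10 to 20 T it was 0.26. Of the 20 orderings of the same bases ATCTT had the highest mean ratio, followed by ATTCT with 0.34 ± 0.035 and TTCAT with 0.31 ± 0.13 (SD, n = 3). The leading orderings overlapped within their spread, and CTATT was lowest, at -0.12 ± 0.070. Among all 474 sequences of 5 nt (5-mers) counted below, ATCTT ranked 33, and 225 of the 474 were above 0 in every replicate.

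The 5-mers were then ranked by the same ratio. Of 474 5-mers frequent enough to count in each replicate and set, 3, or 0.633%, had a log2 ratio above 0.5 in every replicate. These were TCATC with 0.67 ± 0.11, TAGTC with 0.60 ± 0.073 and CTTCA with 0.59 ± 0.084 (SD, n = 3). TCATC was found in 11.9% of members and 7.69% of the flanking windows. The next 7 means were CATCA with 0.57, CATCT with 0.56, AGCAT with 0.56, GACTC with 0.56, ACTTC with 0.55, TTCCA with 0.50 and GCATC with 0.50. Of the 20 highest 5-mers 0 held a run of 3 T.

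Below -0.5 in every replicate were 16 5-mers, or 3.38%, and 11 of these held a run of 3 T. TTTTT was lowest, at -1.96 ± 0.12 (SD, n = 3), and was present in 23.1% of members against 36.5% of the flanking windows. TTGAG had -1.13 ± 0.18, TTTTG had -0.93, GTTTG had -0.85, and the mean of GTTTT was -0.80. Of the 32 5-mers made only of C and T, 16 were above 0 in every replicate and 11 below, beside 225 and 100 of all 474, and their median log2 ratio was 0.08 beside 0.11 for all. TCTTC led with 0.50 ± 0.056 (rank 12 of all) and was present in 38.1% ± 0.88 of members against 27.4% of flanking windows (SD, n = 3). CTTCT had 0.40, TTCTC 0.39 and CTCTT 0.36, whereas CCCCC had -0.36 and CTTTT -0.32.

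**Figure D3:**
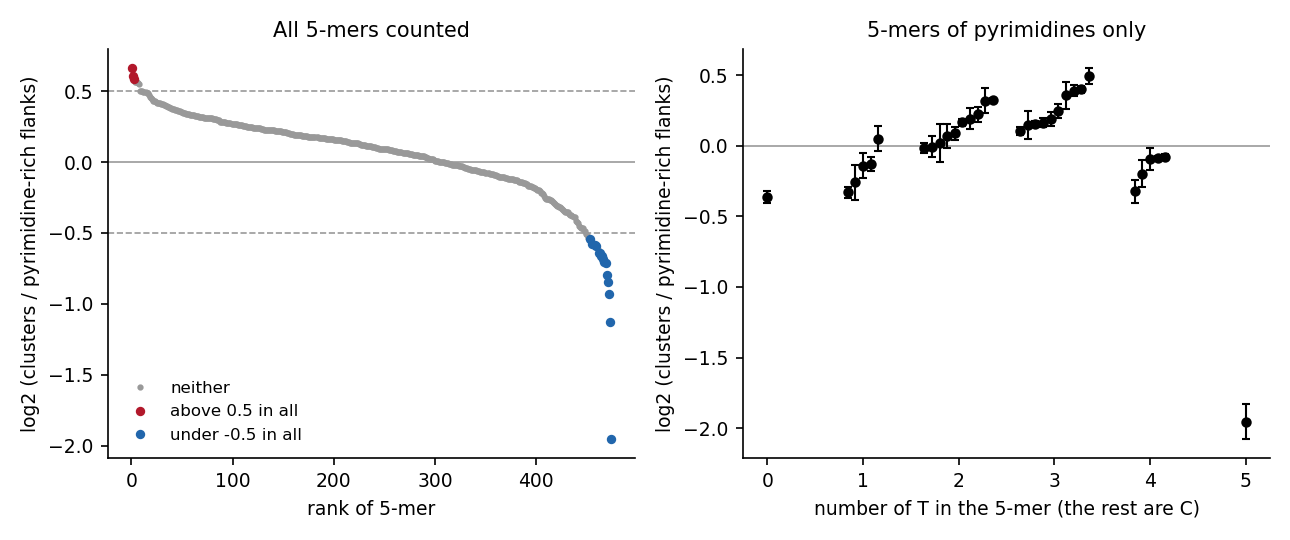
Left, mean log2 ratio of 5-mer frequency in members over pyrimidine-rich flanking windows for the 474 5-mers counted, by rank, with those past 0.5 or -0.5 in every replicate coloured. Right, the 32 5-mers of C and T only, by their number of T, as mean ± SD over 3 replicates; those with 3 T have a median of 0.22, and the run of 5 T lies at -1.96.

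Overlap between replicates measured how far the members marked recurrent sites. In replicates 1, 2 and 3, 10.7%, 11.99% and 12.5% of members overlapped a cluster of another replicate by at least 1 nt, averaged over both others. For mixed clusters the shares were 10.6%, 10.3% and 11.3%. The groups overlapped, and the difference of 0.98 points ± 0.86 had values of 0.044, 1.74 and 1.15 (SD, n = 3; p = 0.25, exact sign-flip test). Over all intron clusters of this length range the mean share was 11.69%, beside 11.72% for members. By C plus T share it was 13.2% ± 0.54 just outside the limit, at 0.70 to 0.75. Just inside, at 0.75 to 0.80, it was 11.8% ± 0.98 (SD, n = 3). When the partner had to be of the same class, the difference was -0.35, with 4.68% of members and 5.03% of mixed clusters. In that setting mixed clusters, the larger class, had more partners to meet. Other settings kept the sign but moved the size, from 0.37 with at least 10 reads to 3.003 with equal weight over the same genes; it was 1.54 without replicate 2 and 0.62 without replicate 3.

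The level reached by moved clusters differed more. Moved by 1000 nt along the chromosome, 3.87% ± 0.45 of members and 6.37% ± 0.21 of mixed clusters met a cluster of another replicate (SD, n = 3). In place over moved was 2.79, 3.48 and 2.87 for members and 1.69, 1.65 and 1.72 for mixed clusters. The lowest member value lay above the highest mixed value, and the log2 difference was 0.85 ± 0.20 (SD, n = 3; p = 0.25, exact sign-flip test). With a move of 200 nt it was 0.49. Weighted equally over the same genes it was 0.72. The ratio was 2.83 ± 0.20 just outside the limit of 0.75 and 2.97 ± 0.35 just inside (SD, n = 3).

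Most members were nonetheless seen once. In replicates 1, 2 and 3, 129, 116 and 147 of them were found in both other libraries, or 2.14% ± 0.22, and 78.7% ± 1.70 were found in neither (SD, n = 3). Over all intron clusters of this length range the shares were close to these, at 2.33% and 78.9%. For mixed clusters they were 1.98% and 80.5%. The balance of T and C within the class went with recurrence. Members whose pyrimidines were at least 0.65 T, 21.0% of the class, had a ratio of in place over moved of 1.99, 2.47 and 2.08. Those at 0.45 to 0.65 T, 59.7% of the class, had 3.05, 3.85 and 3.21, and those under 0.45 T, 19.3%, had 2.89, 3.49 and 2.73. The T-rich members were thus lowest in every replicate. The group at 0.45 to 0.65 T was highest in every replicate, though its range across replicates overlapped that of the group under 0.45 T. This split was not tested further.

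The T-to-C change that marks the crosslink gave opposite orders by T and by read. Of the T positions read, 8.22%, 8.598% and 8.89% were converted in members of replicates 1, 2 and 3, against 12.04%, 12.3% and 12.7% in mixed clusters. All member values lay below all mixed values, with a difference of -3.78 points ± 0.048 (SD, n = 3; p = 0.25, exact sign-flip test). A member read covered 12.7 T positions ± 0.49 and a mixed read 8.32 ± 0.33 (SD, n = 3). Per read, conversion events were 1.08 ± 0.017 and 1.03 ± 0.027 (SD, n = 3), so the lower rate per T went with more T per read. The C plus T limit itself raises the T content of members, so the direction of this comparison was in part fixed by the rule. Among clusters with 10 to 20 T the difference per T was -2.70.

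Reads with a T-to-C change made up 89.6% ± 0.22 in members and 88.6% ± 0.68 in mixed clusters, a difference of 0.94 points ± 0.74 (SD, n = 3; p = 0.25, exact sign-flip test). The difference was 0.52 without replicate 2, and its direction was not stable, with -0.57 among clusters of at least 10 reads and -0.77 among those of 30 to 59 nt. Of the T positions in the sequence, 17.5% ± 0.70 were converted at least once in members and 24.1% ± 0.96 in mixed clusters (SD, n = 3). That difference was -6.51 points ± 0.29 (SD, n = 3; p = 0.25, exact sign-flip test). Its direction was in part fixed too, since members held a mean of 16.5 T against 13.1 in mixed clusters. Converted positions, for which the listed minimum is 2, averaged 2.89 and 3.15 per cluster. Within the class, conversion per T was 11.9% ± 0.36 where T was under 0.45 of the pyrimidines and 6.83% ± 0.20 where it was at least 0.65 (SD, n = 3). That split is itself made on T, so it shares this limit.

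**Figure D4:**
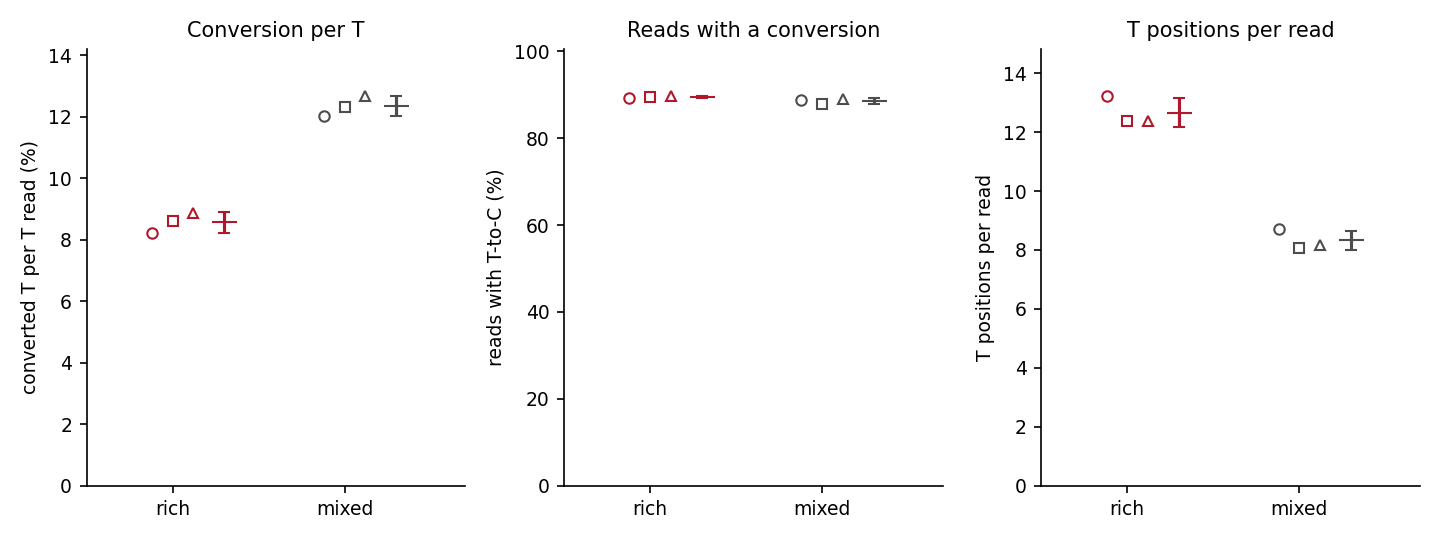
Percent of T positions read as converted, percent of reads with a T-to-C change and T positions per read, for pyrimidine-rich (rich) and mixed intron clusters. Circles, squares and triangles are replicates 1, 2 and 3, and bars are the mean ± SD. Members are lower per T (8.57% against 12.3%), close per read (89.6% against 88.6%) and carry more T per read (12.7 against 8.32).

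Members were short and shallow. Their mean length was 37.9 nt ± 1.55 against 46.6 nt ± 2.52 for mixed clusters, a difference of -8.66 nt ± 1.46 (SD, n = 3; p = 0.25, exact sign-flip test). The median member had 8, 7 and 8 reads in replicates 1, 2 and 3, of which 3 were distinct, and the deepest had 93, 71 and 79. On the log2 scale reads per cluster differed from mixed clusters by -0.20 ± 0.029 and distinct reads by -0.17 ± 0.064 (SD, n = 3; p = 0.25 for each, exact sign-flip test). Among clusters of 30 to 59 nt these differences were -0.04 and 0.030, and with equal weight over the same genes -0.10 and -0.01. In all, members held 5.98%, 4.33% and 6.16% of the reads in intron clusters of this length range.

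The deepest members, chosen here after their values were seen, were as follows. In replicate 1 a member of 93 reads, 68.8% of them with T-to-C, lay at chr6:8087007-8087110 (hg38, minus strand) in an intron of EEF1E1, a component of the multi-tRNA synthetase complex. In replicate 2 a member of 71 reads lay at chr1:220271880-220271917 (minus strand) in RAB3GAP2, part of the complex that regulates RAB3 and RAB18. In replicate 3 a member of 79 reads lay at chr12:53675667-53675720 (minus strand) in ATP5G2, a gene for the c subunit of ATP synthase. The EEF1E1 member was found in 1 other library and the latter 2 in none.

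Position within introns was compared because the class resembles the tract before the 3′ splice site. The centre lay within 100 nt of an annotated 3′ splice site in 3.15%, 2.996% and 3.30% of members and in 1.57%, 1.60% and 1.77% of mixed clusters. Members were higher in every replicate, by 1.504 points ± 0.092 (SD, n = 3; p = 0.25, exact sign-flip test). Within 25 nt it was 1.19% ± 0.16 of members against 0.140% of mixed clusters (SD, n = 3). Pyrimidine-rich flanking windows, however, lay within 100 nt in 3.10%, and the difference of members from these was 0.05 ± 0.18 (SD, n = 3), within the spread between replicates. Closer to the site members were below these flanking windows in every replicate, by -0.16 points ± 0.097 within 25 nt and by -0.31 points ± 0.13 within 50 nt (SD, n = 3; p = 0.25 for each, exact sign-flip test). These comparisons with flanking windows were chosen after seeing the data. With a limit of 300 nt the difference from mixed clusters was 0.38, and with a C plus T limit of 0.70 it was 0.85.

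Nearly all members thus lay elsewhere in the intron. The median host intron was 11665 nt ± 679 long, against 9592 nt ± 579 for mixed clusters (SD, n = 3). The median relative position, from 0 at the 5′ end to 1 at the 3′ end, was 0.443 ± 0.0078 (SD, n = 3). Within 100 nt of a 5′ splice site lay 2.44% ± 0.23 of members and 2.32% of mixed clusters, a difference within the spread. Against pyrimidine-rich flanking windows, at 1.83% ± 0.25, members were higher by 0.613 points ± 0.20, in every replicate (SD, n = 3, p = 0.25, exact sign-flip test). That comparison was not planned.

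**Figure D5:**
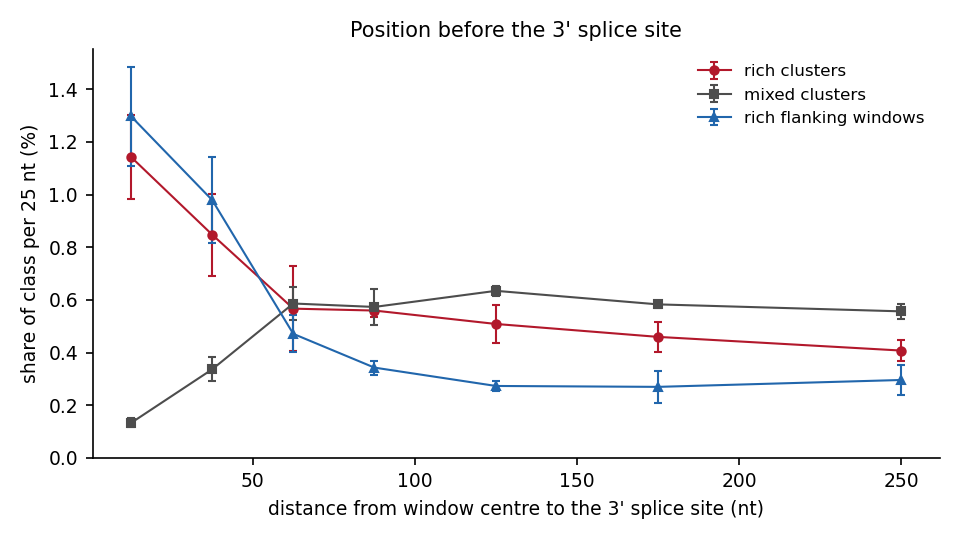
Share of pyrimidine-rich clusters, mixed clusters and pyrimidine-rich flanking windows per 25 nt of distance from the window's centre to the 3′ splice site, as mean ± SD over 3 replicates. In the nearest 25 nt members stand at 1.14% and flanking windows at 1.30%, with mixed clusters at 0.13%.

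Within 50 nt of a 3′ splice site were centred 1.82%, 1.98% and 2.22% of the members of replicates 1, 2 and 3. A part of these, 316 members in 300 genes, was listed with the sequence up to the intron's end. The counts that follow cover this part alone. The intron ended in AG at 316 of 316 of its sites. The median gap from the cluster's end to the last base of the intron was 7 nt. Of these members 6 were found in all 3 libraries, 52 in 2 and 258 in 1. The 6 comprised the PFAS member printed above, 3 clusters of MARCH7 (1 per replicate), and the UNC119B and MTHFD1 members.

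In PFAS, a gene of purine synthesis, the cluster at chr17:8257773-8257805 (plus strand) had 15 reads in replicate 3 and ended 1 nt before the end of its intron. In MARCH7, which encodes a membrane-bound ubiquitin ligase, the clusters had 11, 6 and 12 reads in replicates 1, 2 and 3, and the printed cluster of replicate 3 spans chr2:159762832-159762871 (plus strand).

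By gene, members were spread thinly. They fell in 3681, 3065 and 3615 genes of replicates 1, 2 and 3, and in 5899 genes in all. Of the 7377 genes with an intron cluster in every replicate, 1324, or 17.9%, had a member in every replicate. Over all 5899 genes with a member, 1814 had one in 2 replicates and 2761 in 1. Without replicate 2, 2130 genes had a member in both other libraries. The median gene with members in every replicate had 2 per replicate. Transcript abundance and intron length were not corrected for, so these counts are not densities.

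The 10 genes with the largest geometric mean number of members are 290.1 kb (RBFOX2) to 1195.2 kb (AUTS2) long. SND1, a nuclease-domain protein of the RNA-induced silencing complex (chr7:127652194-128092609, plus strand), had 20, 11 and 15 members in replicates 1, 2 and 3, among 249, 204 and 212 intron clusters. Its share of 6.83% ± 1.34 was close to the 6.63% of all intron clusters. GPC3, a cell-surface heparan sulfate proteoglycan (chrX:133535745-133987100, minus strand), had 11, 13 and 14 members, a share of 12.1% ± 2.31 (SD, n = 3). DLGAP1, a postsynaptic scaffold protein (chr18:3496032-4455307, minus strand), had 11, 10 and 11, a share of 12.5% ± 2.13 (SD, n = 3).

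RBFOX2, itself a splicing regulator (chr22:35738736-36028824, minus strand), had 13, 5 and 9 members and the widest spread of share, 12.2% ± 5.37 (SD, n = 3). TTC28 had 10, 9 and 15 members, AUTS2 13, 10 and 9, and ADGRV1, an adhesion receptor, 8, 9 and 11. THSD4 had 7, 8 and 14 members, the deacetylase gene HDAC9 13, 5 and 9, and RPTOR, the scaffold of the growth kinase complex mTORC1, 9, 6 and 10. Shares ranged from 5.49% in THSD4 to 12.5% in DLGAP1. The genes were ranked on the number of members, so a high share is in part the ranking.

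A list of 24 genes for MATR3, its partners and proteins that read pyrimidine tracts was examined next. Of these 22 had an intron cluster and 21 had one in every replicate. A member in every replicate was found in 1 of the 21, PTBP2, beside 17.9% of all such genes. Members occurred in 2 replicates for 9 genes, in 1 for 7 and in 0 for 5, which were RAVER1, RAVER2, SF1, SFPQ and TIAL1.

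PTBP2 had 4, 1 and 2 members with 34, 11 and 19 reads in replicates 1, 2 and 3. The first PTBP2 member printed above, at chr1:96774691-96774719 (hg38, plus strand), overlapped clusters of both other libraries, and the second, at chr1:96727046-96727077, was found in replicates 1 and 3. MATR3 had 0, 0 and 1 members among 21, 23 and 29 intron clusters. That member, at chr5:139274331-139274371 (plus strand) with 19 reads, was centred 12 nt before a 3′ splice site. Its last bases run past that site, and an annotated intron of 1955 nt holds the whole cluster.

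PTBP1, the tract-binding repressor of exons, had 0, 0 and 1 members, and PTBP3 had 1, 0 and 2. U2AF2, which reads the tract of the 3′ splice site, had 1, 1 and 0. PCBP2, a poly-C binding protein, had 0, 1 and 2, and HNRNPC, which binds runs of U, had 2, 1 and 0. With numbers this small the replicates of these genes overlap. A replicate without a member can still list clusters in the gene's introns that miss the C plus T limit. TIA1 had 0, 0 and 1 members, yet its replicate 3 member overlapped clusters of both other libraries. A count of 0 is therefore not absence of binding, and sites with under 4 reads were not detectable.

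The 29 places shared by members of all 3 replicates had a median union of 59 nt and a median shared stretch of 31 nt. They took in 0.425% of the members of replicate 1, and the same count for mixed clusters was 0.473%. Mixed clusters were more numerous and longer, with more partners of their own class to meet. These shares therefore do not compare the recurrence of the classes at equal odds. TCTTC lay in 17 of the 29 (58.6%), ATCTT in 5 (17.2%) and TCATC in 4 (13.8%). Over all members, whose median length of 35.3 nt is below that of these unions, the shares were 38.1%, 11.98% and 11.9%. Within 100 nt of a 3′ splice site lay 1, that of MARCH7.

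Ranked by reads per 1000000 reads in intron clusters of this length range, LEMD2 led. Its region at chr6:33788095-33788193 (hg38, minus strand), in the gene of an inner nuclear membrane protein, had 17, 15 and 24 reads in replicates 1, 2 and 3, or 18.2 ± 4.71 per 1000000 (SD, n = 3). It lay in an intron of 1606 nt, with the replicate 1 cluster centred 1395 nt from the 3′ splice site. The region of CDC42BPA, a kinase acting downstream of CDC42, at chr1:227190823-227190921 (minus strand) had 21, 12 and 21 reads.

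The WDR33 region, in the gene of a cleavage and polyadenylation factor, lay at chr2:127777015-127777099 (minus strand) and had 19, 12 and 19 reads. The TRIM26 region, in a ubiquitin ligase gene, lay at chr6:30195242-30195341 (minus strand) and had 11, 14 and 24. In DDX23, which encodes a helicase of the U5 snRNP, the region at chr12:48831422-48831523 (minus strand) had 14, 9 and 21 reads and sat in an intron of 761 nt. Replicate 2 had the fewest reads in LEMD2, CDC42BPA, WDR33 and DDX23, and replicate 1 in TRIM26.

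The POLA1 region, in the gene of the catalytic subunit of DNA polymerase alpha, was the most even of those printed, with 14, 14 and 13 reads at chrX:24797348-24797434 (plus strand), and holds both TCTTC and ATCTT. The ARID1B region, in the gene of a chromatin remodelling subunit, had 13, 15 and 5 reads at chr6:156795737-156795772 (plus strand). The HEXA region, in the gene of a lysosomal hexosaminidase subunit, had 11, 7 and 12 reads at chr15:72369903-72369953 (minus strand). Of the other named places, KLHDC10 had 9, 29 and 6 reads and HELLS, a chromatin remodelling helicase gene, 25, 9 and 5, while DCUN1D4 had 14, 6 and 29. PHYKPL had 18, 10 and 19 reads, CLASP2, a microtubule plus-end protein gene, 22, 9 and 11, PHTF2 12, 9 and 15, and TMEM60 11, 9 and 8.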

How the data were processed

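Per the labels' protocols, MATR3 PAR-CLIP was done on HEK293 cells in 3 biological replicates, with small RNA cDNA libraries. The authors deposited 1 table of clusters per replicate, called in each library separately. Per the file headers, reads, distinct reads, conversion locations and conversion and non-conversion events are whole counts, not normalised. The authors' fraction, from 0 to 1, gives the share of a cluster's reads that carry T-to-C, printed here in percent. The deposited mode location is a genome position. The submitters' processing notes name hg38, and every cluster sequence equalled hg38 at its coordinates, read as 1-based and inclusive. Aligner, cluster caller and annotation release are not given in the sources used here, and the library depth outside clusters is not known here.

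Introns are those of the authors' annotation; splice site distances used GENCODE release 44. Conversion per T is conversion events over all events, summed per class. Flanking windows had the cluster's length, 200 nt beyond each end. A 5-mer was counted where at least 50 windows held it in each replicate and set. Called 5-mers passed a log2 ratio of 0.5 in all replicates. Overlap needed 1 nt on the same strand. Differences were taken within replicates and tested over the 3 replicates by exact two-sided sign-flipping, for which no p-value can be under 0.25. The family held 12 tests, so no adjusted value can pass 0.05. Clusters are not replicates and gave no test. Of 13 checks on simulated data, 13 recovered the values put in. Python 3.11.15, numpy 2.4.6, pandas 2.3.3 and pysam 0.24.0 were used.

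Genes named were the 10 with the largest geometric mean number of members, a list of 24 factor genes, and the 15 regions with the most reads per 1000000. The 5-mers named were ATCTT, the 10 highest and the 5 lowest; others, and the orderings of ATCTT, were named after their values were seen. Members and lists were chosen with earlier results of these data known. Alternatives were other limits on the C plus T share, mixed share, reads, length, T content, flank and moving distance, overlap and splice site distance, equal weight over genes, medians, and leaving out each replicate.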

Additional observations from a re-analysis of the deposited data

How the results depend on the processing

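Across 13 results, 156 alternatives were computed. Of these, 6 reversed the direction of the reported value, 1 gave 0 and all others kept it. In size 120 stayed within 1.5 times the reported value. Distinct reads per cluster reversed among clusters of 30 to 59 nt, to 0.030 on the log2 scale. Reads with T-to-C reversed to -0.29 points with at least 3 distinct reads, -0.57 with at least 10 reads, -0.77 among clusters of 30 to 59 nt and -0.23 with equal weight over the same genes, and the median over clusters gave a difference of 0. Overlap with another replicate reversed to -0.35 points when the partner had to be of the same class. The cause of these changes was not tested. The 1324 genes with members in every replicate became 2884 at a limit of 0.70 and 308 at 0.80, 697 when 3 distinct reads were required and 266 when 10 reads were, as fewer or more clusters enter. Leaving out a replicate gave 1794 to 2130 genes, since only 2 libraries then had to hold a member. The windows without a run of 8 T and the 3′ splice site comparison with flanking windows were chosen after seeing the data. Position in repeats was planned but not run, because the reference used here carries no repeat marks. With a median of 3 distinct reads per member, single clusters give little precision, and 3 replicates cannot reach p under 0.25.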

Other observations

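The deposited mode location of each cluster, a genome position, was not marked by T in the members. T stood at the mode in 42.9% of members, close to their T content of 43.8%, and G was at 8.61% there. Bases at cluster ends did differ between classes. The last base was G in 7.46% of members ± 0.96 and in 17.8% of mixed clusters, and the base before the first was G in 7.80% ± 0.24 and 9.72% (SD, n = 3). G made up 9.17% of the bases of members and 25.8% of those of mixed clusters, and its part in these differences was not tested.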
